A study of Mus musculus with 5 samples.

Results

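The brush border peptidases are enzymes that sit on the luminal microvilli of kidney and intestinal epithelium and cut peptides outside the cell. In the kidney they are known chiefly from the proximal tubule, where they break filtered peptides and glutathione into amino acids and dipeptides that neighboring transporters then take up. Some of them, such as neprilysin and aminopeptidase A, are also known from podocytes, the cells that cover the outer face of the glomerular capillary. The set described here holds 8 genes of the 21019 with values in the deposited table. These are *Mep1a* and *Mep1b* (the α and β subunits of the metalloprotease meprin), *Anpep* (aminopeptidase N), *Enpep* (aminopeptidase A), *Ggt1* (γ-glutamyltransferase), *Dpep1* (a membrane dipeptidase), *Mme* (neprilysin) and *Dpp4* (dipeptidyl peptidase IV). The genes were chosen by name, with earlier results of the comparison below known. Their differences between the groups are therefore given as a description, with no p-value, and counts of calls among them stand only beside the share of all genes.

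RNA bound to GFP-tagged ribosomes was sequenced from mice of C57BL/6 lines at 3 weeks of age by translating ribosome affinity purification (TRAP). The 3 *Pfn1*-KO samples came from mice with *Pfn1* fl/fl, in which exon 1 of the profilin1 gene is flanked by loxP sites, together with *Pod-Cre* and *Rosa-Dtr* fl, and the 2 control samples came from mice with *Pfn1* +/+, *Pod-Cre* and *Rosa-Dtr* fl. Both groups carry the Cre recombinase driven by a podocyte promoter, a loxP-flanked diphtheria toxin receptor allele and the Cre-dependent GFP-L10a ribosomal protein, each sample pools 3 mice, and the pulldown was made from whole kidney cortex, so that tubules were part of the starting lysate. The sample labels name glomerular podocytes and a column RNA kit and do not mention the pulldown. The table's columns carry tags of their own, which are used here as library names: *Pfn1*-KO N2, N3 and N4, and control N1 and N3.

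The libraries differed in ways that touch every result below. Library sizes were 18186900 to 24871893 reads in the *Pfn1*-KO group, against 22822635 and 23704366 in controls. The table listed 20435 to 20980 genes above 0 in the *Pfn1*-KO libraries, and 6901 and 7528 in controls. An rRNA gene, CT010467.1, stood at 346, 133787 and 194 FPKM (reads scaled by gene length and library size) in *Pfn1*-KO N2, N3 and N4, against 291221 and 311036 in controls. Genes that every cell uses, such as *Ppia*, *B2m* and *Polr2a*, were listed at 0 in control N3, so a gene listed at 0 is reported as such, and no fold is computed against it. The libraries labelled *Pfn1*-KO had 41.9, 17.2 and 27.8 FPKM of *Pfn1* itself, against 13.6 and 11.8 in controls. In FPKM as deposited the targeted gene was thus not lower in them. This value covers the whole gene, while only exon 1 is flanked by loxP sites. Nuclear protein-coding genes summed to 148387 to 190200 FPKM in *Pfn1*-KO, against 73907 and 85683 in controls, so other scalings change this comparison. The study reported loss of *Pfn1* in isolated podocytes by real-time PCR, Western blotting and immunofluorescence. Because these are bulk samples, fewer cells of a type and less RNA per cell cannot be told apart.

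The bases before the transcription start were read for 7 of the 8 genes from the RefSeq promoter table (GRCm38.p6), all but *Mep1b*. Shown here, 5′ to 3′ along the gene, are the 250 bases before the start of 3 of the 4 genes listed at 0 in both controls (*Mep1a*, *Anpep* and *Dpp4*), and of *Enpep*, which was above 0 in every library. They lie on the minus strand at chr17:43502774-43503023 (*Mep1a*), chr7:79848211-79848460 (*Anpep*), chr2:62412232-62412481 (*Dpp4*) and chr3:129332750-129332999 (*Enpep*). The *Anpep* window lies inside the span given for the gene below (79821803 to 79861059), so the RefSeq start it precedes is not the outermost one. Its composition describes that start only. Capitals mark CpG dinucleotides.
Mep1a: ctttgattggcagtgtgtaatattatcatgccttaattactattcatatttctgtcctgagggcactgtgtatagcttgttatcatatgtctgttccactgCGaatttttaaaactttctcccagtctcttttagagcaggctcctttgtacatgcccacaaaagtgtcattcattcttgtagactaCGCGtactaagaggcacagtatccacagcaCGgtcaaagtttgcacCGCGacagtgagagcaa
Anpep: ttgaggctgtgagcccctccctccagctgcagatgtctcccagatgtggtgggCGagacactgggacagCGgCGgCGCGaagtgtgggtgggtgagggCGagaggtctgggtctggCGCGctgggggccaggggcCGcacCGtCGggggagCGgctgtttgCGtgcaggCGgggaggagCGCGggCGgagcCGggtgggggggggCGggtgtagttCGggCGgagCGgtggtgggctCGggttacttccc
Dpp4: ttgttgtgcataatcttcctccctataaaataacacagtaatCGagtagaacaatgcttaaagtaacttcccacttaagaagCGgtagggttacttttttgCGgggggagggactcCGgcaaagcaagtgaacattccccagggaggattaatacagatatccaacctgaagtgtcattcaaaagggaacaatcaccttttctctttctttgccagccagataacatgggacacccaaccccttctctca
Enpep: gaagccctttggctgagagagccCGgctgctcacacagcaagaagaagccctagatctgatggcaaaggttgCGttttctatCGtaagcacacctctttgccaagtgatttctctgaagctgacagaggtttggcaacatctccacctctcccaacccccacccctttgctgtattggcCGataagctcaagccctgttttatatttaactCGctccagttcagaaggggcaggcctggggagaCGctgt

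These windows were unlike each other in base composition. *Anpep* had 23 CpG and 72.8% G and C, while *Mep1a* had 6 CpG and 41.6%, *Enpep* 6 CpG and 52.4%, and *Dpp4* 4 CpG and 43.6%. The median over 32851 RefSeq promoters was 6 CpG and 52.4% G and C. Of the shown genes listed at 0 in both controls, *Anpep* thus lay far above that median, *Mep1a* at it in CpG and *Dpp4* a little below it. Both strands were searched for CAAAGNNCA, an element bound by HNF4 factors. It was not found in the 12 promoter windows of the 7 genes, while 5.49% of all promoters held it. The absence says only that these letters are not in these 250 bases.

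Meprin made up the largest single part of the signal. *Mep1a*, on the minus strand of chromosome 17 (GRCm38, 43474324 to 43502812), encodes the subunit that is released from the membrane and forms large oligomers. It stood at 134, 174 and 120 FPKM in *Pfn1*-KO N2, N3 and N4 (10713, 14913 and 7530 reads) and was listed at 0 in both controls. It was the highest of the 8 genes in each *Pfn1*-KO library, with 42.1%, 49.2% and 42.2% of their summed level. *Mep1b*, on chromosome 18 (21061923 to 21100199, plus strand), encodes the membrane-anchored subunit. It stood at 13.6, 20.4 and 9.36 FPKM in *Pfn1*-KO N2, N3 and N4 and was also listed at 0 in both controls. Both subunits were highest in *Pfn1*-KO N3 and lowest in N4.

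The aminopeptidases and the dipeptidyl peptidase differed in whether the controls carried them at all. *Anpep*, on chromosome 7 (79821803 to 79861059, minus strand), encodes the enzyme that removes neutral residues from the amino end. It stood at 21.5, 15.1 and 21.3 FPKM in *Pfn1*-KO N2, N3 and N4, against 0 and 0 in control N1 and N3. *Dpp4*, on chromosome 2 (62330073 to 62412231, minus strand), encodes the enzyme that removes dipeptides ending in proline or alanine. Its level was 28.0, 43.2 and 23.2 FPKM in *Pfn1*-KO N2, N3 and N4, against 0 and 0 in controls. *Enpep*, on chromosome 3 (129269175 to 129332720, minus strand), encodes the enzyme that removes acidic residues and turns angiotensin II into angiotensin III. It was read in every library, at 30.2, 47.3 and 24.0 FPKM in *Pfn1*-KO N2, N3 and N4, against 2.53 and 5.35 in control N1 and N3 (282 and 575 reads). The lowest *Pfn1*-KO value of *Enpep* was 4.48 times the highest control value, and the groups did not overlap.

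Of the enzymes of glutathione and small peptides, *Ggt1* had the highest mean level of the 8 in controls, 11.4 FPKM. It lies on chromosome 10 (75561604 to 75586200, plus strand) and encodes the enzyme that starts the breakdown of glutathione outside the cell. It stood at 50.9, 27.4 and 51.1 FPKM in *Pfn1*-KO N2, N3 and N4, against 18.1 and 4.75 in control N1 and N3. The lowest *Pfn1*-KO value was 1.51 times the highest control value, and the 2 controls were themselves far apart. *Dpep1*, on chromosome 8 (123186242 to 123201812, plus strand), encodes the dipeptidase that takes the next step and splits cysteinylglycine. Its level was 18.2, 13.4 and 12.5 FPKM in *Pfn1*-KO N2, N3 and N4, against 0 in control N1 and 0.229 in control N3, where it rests on 13 reads. *Mme*, on chromosome 3 (63241537 to 63386030, plus strand), encodes neprilysin, which cuts natriuretic and other small peptides. It stood at 22.3, 12.6 and 22.6 FPKM in *Pfn1*-KO N2, N3 and N4, against 0.738 and 0 in control N1 and N3 (202 reads and none).

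All 8 genes were above both controls in each *Pfn1*-KO library, as were 80.1% of the 14631 genes tested. Of the 8 members, 4 were listed at 0 in both controls, against 10.7% of 2714 protein-coding genes whose mean level in *Pfn1*-KO lay in the members' range and 41.0% of all genes tested. Since the members were chosen with these values known, nothing is read from these counts. For the 4 genes at 0 in both controls, 3 reads would be worth at most 0.0501 FPKM there. Reads from overlapping gene models (*Mep1b* with Gm6378, *Anpep* with Gm44974, *Enpep* with Gm42628, *Dpep1* with Gm20388 and *Dpp4* with Gm13561) may have been split or set aside by the counting, whose strand setting is not given in the sources used here.

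**Figure D1:**
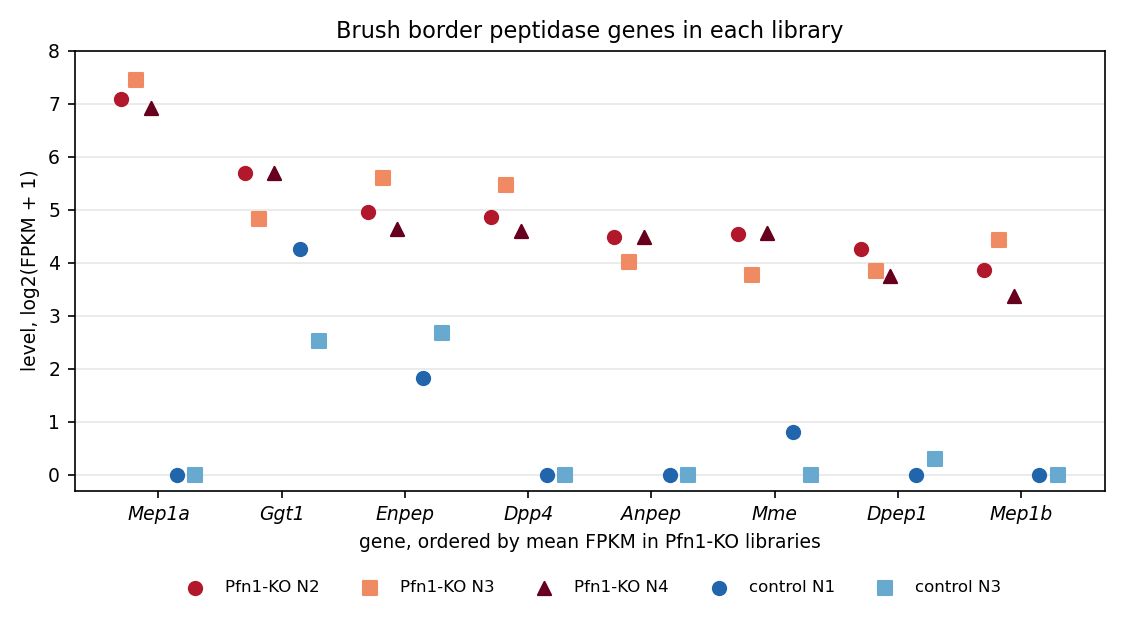
Level of each of the 8 genes as log2(FPKM + 1), with a point for each library, *Pfn1*-KO libraries at the left of each gene and controls at the right. *Mep1a* stands above the others in *Pfn1*-KO (mean 143 FPKM), and *Ggt1* and *Enpep* are the genes above 0 in both controls.

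On the log2(FPKM + 1) scale, the fitted difference between *Pfn1*-KO and control was 7.15 for *Mep1a* (standard error 0.47), 4.97 for *Dpp4* (0.45), 4.33 for *Anpep* (0.39) and 3.89 for *Mep1b* (0.44). It was 3.89 for *Mme* (standard error 0.48), 3.80 for *Dpep1* (0.39), 2.82 for *Enpep* (0.54) and 2.02 for *Ggt1* (0.69). For a gene at 0 in a control library this size depends on the pseudocount of 1 and is no bound on the true fold. All 8 genes were called higher by limma at a Benjamini-Hochberg adjusted p under 0.05, as were 70.1% of all genes tested, and the members' median of 3.89 stands beside a median of 1.75 over all genes. Nothing is read from this count. *Mep1a*, *Mep1b*, *Anpep*, *Dpep1* and *Dpp4* were called in all 14 alternatives that could be run for them, *Mme* in 13 of 14 (not by limma-voom), *Enpep* in 12 of 15 and *Ggt1* in 6 of 15. Over all genes, 10251 were called higher and 312 lower, a share of 97.0% higher among calls, and after quantile normalization, which gives each library the same distribution of values, 1184 were higher and 1865 lower (38.8% higher). These calls measure only the spread between these 5 pooled samples.

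The members' direction did not turn under any of the 15 alternatives, but the size did move, and calls were lost. For the 4 members at 0 in both controls, no rescaling, pseudocount or left-out library could turn it. Of the 8, 6 were called under quantile normalization, against 8.09% of all genes, 6 under median-ratio scaling (46.8% of all genes) and 5 by limma-voom (42.3%). *Ggt1* was not called when control N3 or any 1 *Pfn1*-KO library was left out. Its difference of 2.02 became 1.15 without control N3 and 2.89 without control N1. Under quantile normalization the median over all genes was -0.09, and the members' median was 2.04, with *Mep1a* at 5.80, *Dpep1* at 1.67 and *Ggt1* at 0.57. Under division by median-ratio size factors the median over all genes was 0.98, and *Enpep* stood at 1.19 and *Ggt1* at 0.30, so that *Ggt1* lay below the median gene. When each library was scaled to 1000000 over nuclear protein-coding genes, *Ggt1* was at 268, 185 and 300 in *Pfn1*-KO N2, N3 and N4, against 245 and 55.5 in control N1 and N3, and the groups overlapped. *Enpep* was at 159, 319 and 141 in *Pfn1*-KO N2, N3 and N4 on this scale, against 34.2 and 62.5 in control N1 and N3, and the groups did not overlap.

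**Figure D2:**
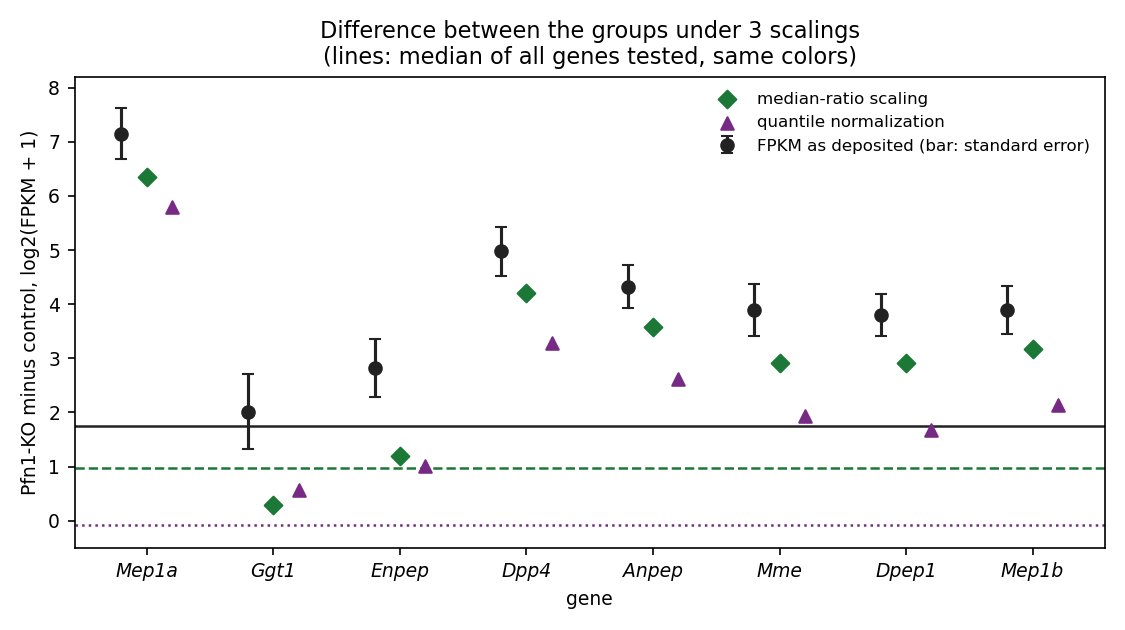
Difference between *Pfn1*-KO and control on the log2(FPKM + 1) scale for each gene, from FPKM as deposited (circles, bars of 1 standard error), after median-ratio scaling (diamonds) and after quantile normalization (triangles). Horizontal lines give the median of all genes tested in each scaling, 1.75, 0.98 and -0.09, and *Ggt1* lies nearest to its line as deposited and after quantile normalization, and below it after median-ratio scaling.

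Within *Pfn1*-KO, the order by mean FPKM was *Mep1a* at 143 ± 27.8, *Ggt1* at 43.1 ± 13.6, *Enpep* at 33.8 ± 12.1, *Dpp4* at 31.5 ± 10.4, *Anpep* at 19.3 ± 3.63, *Mme* at 19.2 ± 5.71, *Dpep1* at 14.7 ± 3.08 and *Mep1b* at 14.5 ± 5.57 (SD, n = 3 libraries). Only 2 steps of this order were free of overlap between neighbors, that from *Mep1a* to *Ggt1* and that from *Dpp4* to *Anpep*. The 2 controls did not share an order. *Ggt1* held 84.7% of the members' summed FPKM in control N1, and *Enpep* held 51.8% in control N3. The summed level was 319, 353 and 284 FPKM in *Pfn1*-KO N2, N3 and N4, against 21.4 and 10.3 in control N1 and N3. This sum varied little among the 3 *Pfn1*-KO libraries, although the share of each gene did.

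That variation ran in 2 directions. *Mep1b*, *Enpep*, *Dpp4* and *Mep1a* were highest in *Pfn1*-KO N3, at 1.78, 1.75, 1.69 and 1.37 times the mean of N2 and N4. *Ggt1*, *Mme* and *Anpep* were lowest in N3, at 0.537, 0.560 and 0.706 times that mean, and *Dpep1* was at 0.874. After scaling to nuclear protein-coding genes the first 4 genes lay at 1.66 to 2.17, *Dpep1* at 1.07, and *Anpep*, *Mme* and *Ggt1* at 0.855, 0.677 and 0.650. The median of this ratio over 14465 tested genes above 0 in the 3 libraries was 0.564 in FPKM, and 2757 of them lay above 1, among them 4 members. Podocyte markers had a median ratio of 1.82, with 14 of 18 above 1, and proximal tubule markers 0.693, with 8 of 20 above 1. *Pfn1*-KO N3 is also the library of its group with the high rRNA level, 1.13% of its FPKM was mitochondrial against 17.9% and 11.2% in N2 and N4, and the part of these features and of the markers in the split was not tested. The longest protein-coding transcripts of *Mep1b*, *Enpep*, *Dpp4* and *Mep1a* hold 42.2% to 48.7% G and C, and those of *Ggt1*, *Anpep* and *Dpep1* 53.3% to 56.3%. *Mme*, at 38.0%, did not follow that pattern, and the grouping was made after the values were seen.

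**Figure D3:**
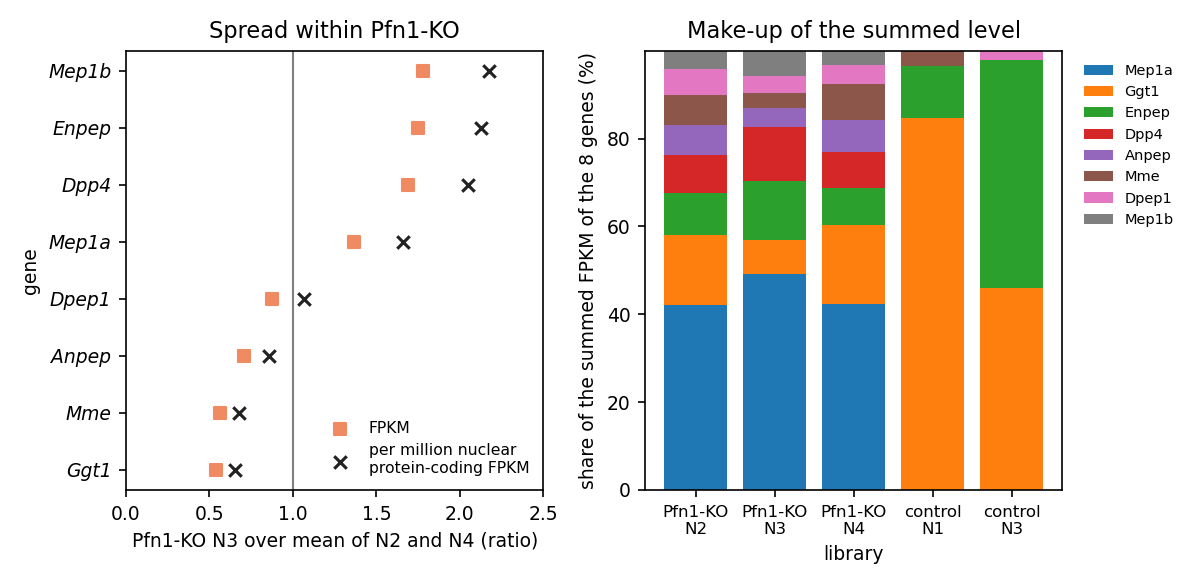
Left, level in *Pfn1*-KO N3 over the mean of *Pfn1*-KO N2 and N4 for each gene, in FPKM (squares) and after scaling to nuclear protein-coding genes (crosses). Right, share in percent of each gene in the summed FPKM of the 8 genes in each library, with *Mep1a* at 42.1% to 49.2% in *Pfn1*-KO and listed at 0 in both controls, where *Ggt1* and *Enpep* make up most of the sum.

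Marker lists of the cell types of the cortex were read beside the peptidases, with 70.1% of all genes called higher as their background. Of 20 proximal tubule markers, 18 were called higher in *Pfn1*-KO, with a median difference of 4.11 on the log2(FPKM + 1) scale. Their summed level was 6876, 9247 and 4448 FPKM in *Pfn1*-KO N2, N3 and N4, against 733 and 330 in control N1 and N3. The members amounted to 4.64%, 3.82% and 6.38% of the marker sum in *Pfn1*-KO, against 2.92% and 3.13% in controls, and both sums put the libraries in the same order. Of these markers, *Gatm* and *Cyp4b1* were listed at 0 in both controls, and *Lrp2*, which encodes megalin, stood at 193, 123 and 202 FPKM in *Pfn1*-KO, against 0.169 and 0 in controls. The 2 markers not called were *Slc7a13* and *Acsm2*. *Slc7a13* stood at 13.2, 17.9 and 20.4 FPKM in *Pfn1*-KO N2, N3 and N4, against 27.1 and 12.0 in control N1 and N3. *Acsm2* stood at 141, 96.0 and 191 FPKM in *Pfn1*-KO, against 83.6 and 31.1 in controls. The part of tubule RNA in the members' difference was not tested. All 8 markers of the thick limb and distal tubule were called higher, and 5 of them, with *Umod* (uromodulin) among them, were listed at 0 in both controls. Podocyte markers summed to 615, 826 and 407 FPKM in *Pfn1*-KO N2, N3 and N4, against 253 and 254 in controls, and 11 of 18 were called higher. Of the other lists, 4 of 7 collecting duct markers, 6 of 8 endothelial, 3 of 5 mesangial and smooth muscle and 2 of 7 leukocyte markers were called higher. The podocyte, collecting duct, mesangial and leukocyte shares were below that of all genes. With lists this short, no difference between cell types is read from these counts.

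**Figure D4:**
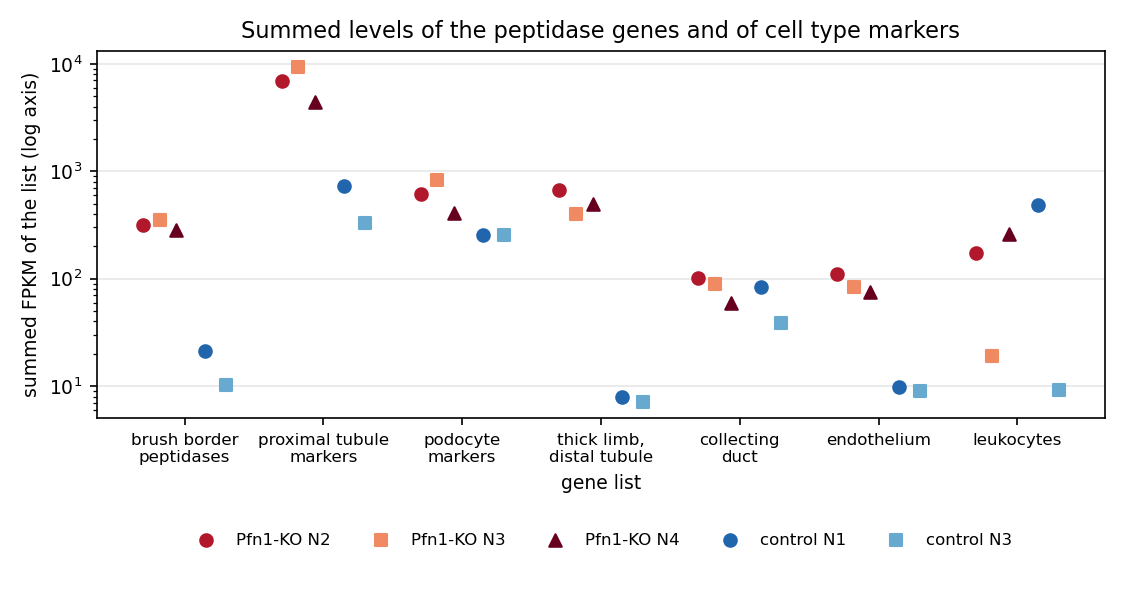
Summed FPKM (log axis) of the 8 peptidase genes and of marker lists of 6 cell types, with a point for each library and *Pfn1*-KO libraries at the left of each list. The peptidases (284 to 353 FPKM in *Pfn1*-KO, 10.3 and 21.4 in controls) and the proximal tubule markers (4448 to 9247 and 330 to 733) are both separated by group. So are the podocyte, the thick limb and distal tubule, and the endothelial markers, while collecting duct and leukocyte markers overlap.

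Other genes of the pathway were counted in 7 lists written from general knowledge, with 59 genes tested. Of these, 54 were called higher by limma with Benjamini-Hochberg adjustment and 0 lower, with 19 higher after quantile normalization and 25 of 56 by limma-voom on reads recovered from the FPKM. The shares of all genes called higher were 70.1% in FPKM as deposited, 8.09% after quantile normalization and 42.3% by limma-voom, and the counts per list that follow are to be read beside the 70.1%. The fitted difference was above 0 for all 59, although 10 of them turned below 0 after quantile normalization, and no alternative called any of them lower. Their median difference was 3.14 on the log2(FPKM + 1) scale, beside 1.75 over all genes. The lists, like the members, were chosen with earlier results of these data known, so no agreement between them is read from these values.

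Among other brush border ectopeptidases, 4 of 5 were called higher. *Ace*, the angiotensin-converting enzyme, stood at 22.4, 18.9 and 15.8 FPKM in *Pfn1*-KO N2, N3 and N4 and was listed at 0 in both controls. *Folh1*, a carboxypeptidase that removes glutamate, stood at 40.8, 23.6 and 34.8 FPKM in *Pfn1*-KO, against 2.52 and 0 in controls. *Xpnpep2*, an aminopeptidase that cuts before proline, and *Cpm*, a membrane carboxypeptidase, were called higher (2.71 and 3.14), and neither was called after quantile normalization.

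The angiotensin list, which joins *Enpep* and *Mme* to their substrates, had 4 of 5 genes called higher. *Agt*, which encodes angiotensinogen, stood at 11.9, 8.02 and 10.4 FPKM in *Pfn1*-KO N2, N3 and N4, and *Agtr1a*, an angiotensin II receptor gene, at 12.0, 7.61 and 9.79. Both were listed at 0 in both controls. *Atp6ap2*, the prorenin receptor gene, stood at 22.9, 26.2 and 15.4 FPKM in *Pfn1*-KO, against 0 and 1.57 in controls. Its call was lost after quantile normalization and by limma-voom. *Ren1*, which encodes renin, stood at 17.6, 31.8 and 10.1 FPKM in *Pfn1*-KO, against 0 and 6.11 in controls (limma adjusted p = 0.0295 by Benjamini-Hochberg), and this call was lost in 9 of 14 alternatives, with each *Pfn1*-KO library or control N1 left out among them.

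The transporters that take up what the peptidases release were all called higher, 11 of 11 tested, with a median difference of 4.15. *Cltrn*, which encodes collectrin, the partner that brings neutral amino acid transporters to the brush border, stood at 127, 193 and 109 FPKM in *Pfn1*-KO N2, N3 and N4, against 3.77 and 0 in control N1 and N3. It was, like *Mep1a*, highest in *Pfn1*-KO N3. *Slc6a19*, the main neutral amino acid transporter gene, stood at 37.1, 18.9 and 21.2 FPKM in *Pfn1*-KO and was listed at 0 in both controls. *Slc6a18*, a relative of *Slc6a19*, stood at 70.4, 32.8 and 53.7 FPKM in *Pfn1*-KO, against 0.363 and 0 in controls. *Slc3a1*, the heavy chain gene of the cystine transporter, stood at 114, 68.0 and 103 FPKM in *Pfn1*-KO, against 5.44 and 0 in controls. Both were lowest within *Pfn1*-KO in N3, where most genes tested lay below the mean of N2 and N4 (median ratio 0.564). *Cltrn* and *Slc3a1* were not called by limma-voom. Several transporters not named here lost their call after quantile normalization.

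All 11 genes of the glutathione cycle and cytosolic peptidases were called higher. *Gclc* and *Gclm*, the subunits of the enzyme that starts glutathione synthesis, differed by 4.03 and 3.53 on the log2(FPKM + 1) scale, and *Gsr*, the glutathione reductase gene, by 2.52. *Lap3*, a leucine aminopeptidase of the cytosol, stood at 33.3, 43.0 and 43.2 FPKM in *Pfn1*-KO N2, N3 and N4, against 2.91 and 3.14 in control N1 and N3. *Chac2*, which encodes an enzyme that breaks glutathione down inside the cell, stood at 12.2, 10.2 and 8.24 FPKM in *Pfn1*-KO and was listed at 0 in both controls. *Gclc* and *Gsr* were not called after quantile or median-ratio scaling. After quantile normalization only *Gclm*, *Lap3* and *Chac2* of this list kept their call, and 2 of the 11 turned below 0.

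Of the microvillus genes, 11 of 13 were called higher. *Ezr*, which encodes ezrin, the link between the membrane and the actin core, stood at 126, 129 and 129 FPKM in *Pfn1*-KO N2, N3 and N4, against 9.32 and 13.8 in control N1 and N3. *Pdzk1*, a scaffold gene of the brush border, stood at 152, 114 and 119 FPKM in *Pfn1*-KO, against 3.18 and 0 in controls. *Myo7b* and *Cdhr5*, of the complex that ties microvillus tips together, differed by 4.37 and 4.65. *Slc9a3r1*, another scaffold gene, differed by 3.60 and was not called after quantile normalization, nor were several genes of this list not named here. *Espn* and *Anks4b* were not called in any setting.

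Of relatives of the members outside the brush border, 9 of 10 were called higher, with a median of 1.93, and 4 of the 10 turned below 0 after quantile normalization. *Lnpep*, an aminopeptidase gene of the *Anpep* and *Enpep* family, stood at 30.0, 12.0 and 33.7 FPKM in *Pfn1*-KO N2, N3 and N4, against 0.00298 and 0.998 in control N1 and N3. *Erap1*, an aminopeptidase gene of the same family that trims antigens, differed by 2.19, *Ece1*, a relative of *Mme*, by 3.25, and *Dpp8*, a cytosolic relative of *Dpp4*, by 2.57. All 4 of these named genes lost their call, but not their direction, after quantile normalization.

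Of the transcription factors, 4 of 4 were called higher. After quantile normalization only *Hnf4a* kept its call, and 1 of the 4 turned below 0. *Hnf4a* stood at 209, 152 and 180 FPKM in *Pfn1*-KO N2, N3 and N4, against 14.7 and 4.79 in control N1 and N3, a difference of 4.24 (± 0.64 standard error, limma adjusted p = 0.00231 by Benjamini-Hochberg), and it was called in all 15 alternatives. *Hnf4g* stood at 3.47, 1.31 and 5.08 FPKM in *Pfn1*-KO and was listed at 0 in both controls. Both were lowest within *Pfn1*-KO in N3, the library in which most genes tested were lower than the mean of N2 and N4.

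**Figure D5:**
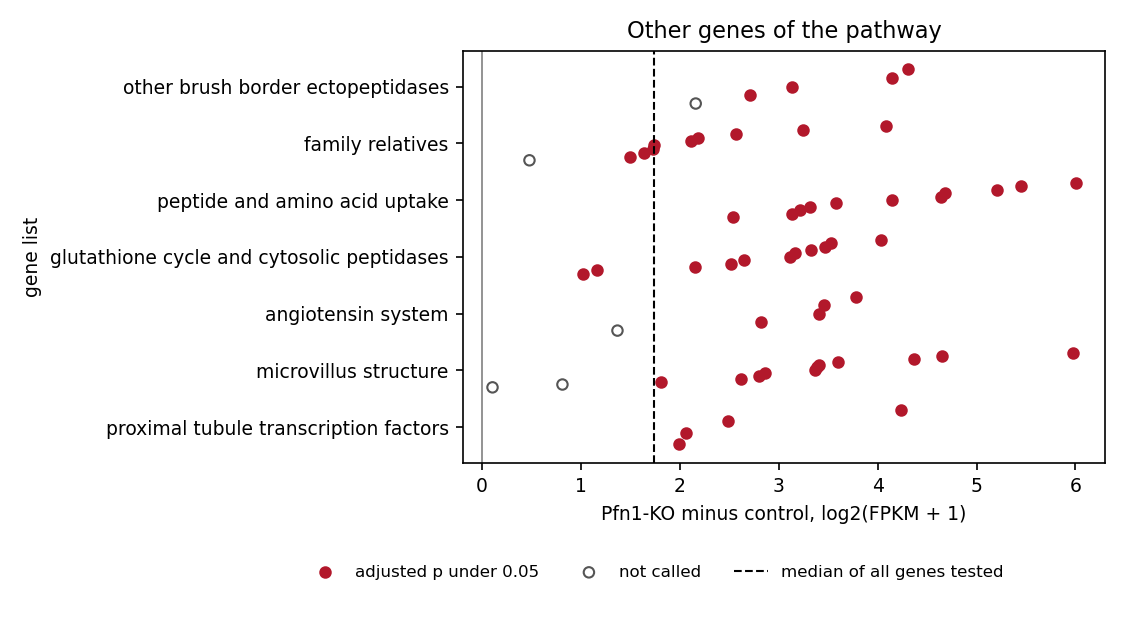
Difference between *Pfn1*-KO and control on the log2(FPKM + 1) scale for the 59 tested genes of 7 pathway lists, filled where called by limma at an adjusted p under 0.05 and open where not. The dashed line is the median of all genes tested, 1.75, and 54 of the 59 points are filled, with *Cltrn* the farthest to the right.

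The protein-coding genes whose profile over the 5 libraries was nearest to the mean profile of the members, out of 11836 compared, were not brush border genes by name. The distance is the root mean square difference of log2(FPKM + 1). The nearest was *Pik3c2a*, a lipid kinase gene, at 0.21, with 24.6, 35.9 and 28.2 FPKM in *Pfn1*-KO N2, N3 and N4, against 0.758 and 0.425 in control N1 and N3. Next came *Isoc1* at 0.23, *Tnks2*, which encodes a tankyrase, at 0.24, *Pafah2*, a phospholipase gene, at 0.25 and *Dag1*, which encodes dystroglycan, at 0.26. The members themselves lay at 0.56 (*Dpp4*) to 1.83 (*Mep1a*) from their own mean, farther than these 5 genes. The 5 were picked as the nearest of 11836, so nothing is read from that contrast.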

How the data were processed

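The submitters' processing notes name fastp 0.20 for trimming, STAR 2.7.9 for alignment, GRCm38.p6 as the build, featureCounts 2.0.0 for counting and DESeq2 1.30.1 for comparing groups, and the methods describe a filter that removed genes with few reads. The only file used is the deposited table, in FPKM as computed by the authors. The log2 values were computed from that deposited FPKM. Its columns name groups and a tag but not the labels' replicate numbers, and the tags of the groups have different forms. Whether the groups were sequenced together is not given in the sources used here. The samples are separate pools of 3 mice, and p-values measure only the spread between them.

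Of 23010 rows, 1991 had no values. Gene places and lengths came from GENCODE vM21, which 20985 IDs matched, 20414 of them with the version number. For these 20414, FPKM times length times library size gave whole reads, within 0.02 of a read. One read in a gene of 1 kilobase was worth 0.0402 to 0.0550 FPKM, which sets the finest step in each library.

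R 4.3.3 with limma 3.58.1 was used to compare the groups, two-sided and with a mean-variance trend, on log2(FPKM + 1) of the 14631 genes that reached 1 FPKM in 2 or more of the 5 libraries. A gene was called under a Benjamini-Hochberg adjusted p of 0.05. The fit was also run on simulated data with known changes, whose means and spreads came from the *Pfn1*-KO libraries alone. That run does not cover the many genes at 0 in the controls, and nothing is drawn from it. Figures used matplotlib 3.10.9 and tables pandas 2.3.3, both under Python 3.11.15. Alternatives were other pseudocounts, filters and scalings, sample weights, limma-voom on the recovered reads and leaving out each library.

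The members and lists were chosen with earlier results of these data known. The genes named are the 8 members, *Pfn1*, in each pathway list up to 4 genes with the largest difference among those called and up to 2 with the highest level in *Pfn1*-KO, and the 5 nearest genes by profile. Some genes that this rule takes in are not reported here. *Ppia*, *B2m*, *Polr2a*, *Gatm*, *Cyp4b1*, *Lrp2*, *Slc7a13*, *Acsm2*, *Umod*, *Espn*, *Anks4b* and the rRNA gene were named after their values were seen.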

Additional observations from a re-analysis of the deposited data

How the results depend on the processing

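The direction of all 8 peptidase genes was kept in each of the 114 values that 15 alternatives gave, of which 51 moved by more than the SD between libraries. For the 4 genes at 0 in both controls, no rescaling, pseudocount or left-out library could turn the direction. Nothing is read from this count, since the members were also chosen with the comparison known. The median difference of the members, 3.89 on the log2(FPKM + 1) scale, was 2.42 among genes above 0 in every library (where 2 members remained), 6.72 with a pseudocount of 0.1, 2.12 with a pseudocount of 5, 3.04 with median-ratio size factors, 2.04 with quantile normalization, 5.35 after rescaling to a sum of 1000000, 5.93 over nuclear protein-coding genes, 8.75 by limma-voom and 4.07 with sample weights. Leaving out each library gave 3.83 to 4.09.

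Genes called higher numbered 2440 among genes above 0 in every library, where fewer were tested, 1184 with quantile normalization and 6011 by limma-voom, and 6746 to 10623 with a library left out, the lowest without *Pfn1*-KO N2. Genes called lower numbered 904 with median-ratio size factors, 1865 with quantile normalization, 98 after rescaling to a sum of 1000000 and 584 over nuclear protein-coding genes, and 174 to 455 with a library left out, the lowest again without *Pfn1*-KO N2. Pathway genes called higher numbered 24 among genes above 0 in every library, 19 with quantile normalization and 25 by limma-voom, and 43 to 54 with a library left out. Apart from the filter, the cause was not tested. No paired analysis was possible because the columns carry no replicate number of the labels and their tags share only 1 number between the groups, so the planned replicate block was not run. Where a library left out leaves 1 control, its spread is assumed to be that of the other group. The rRNA load and the few genes read in the controls limit every comparison.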
